A study of Mus musculus with 27 samples.

Results

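The Id family comprises 4 genes in the mouse, Id1, Id2, Id3 and Id4, and all 4 were measured among the 27080 genes listed in any of the 3 RNA-seq tables of this study. The members were chosen by gene symbol alone, with no threshold on a measured value, but the family was picked with earlier results of these data known. The adjusted p-values below therefore describe each gene and are not independent support for a response of the family. The study asked what the YEATS-domain protein Gas41 (listed as Yeats4), a subunit of the Tip60-p400 and SRCAP chromatin complexes, does in mESCs. RNA-seq was made from J1 mESCs, a single feeder-free mouse ESC line, in 12 libraries. For the knockdown (KD) comparison, cells were infected with lentivirus carrying 1 of 2 shRNAs to Gas41, named shGas41-1 (3 libraries) and shGas41-2 (2 libraries), or a non-targeting shRNA (shNT, called shCon in the labels, 3 libraries), kept with LIF, and harvested 8 days after infection. For the embryoid body (EB) comparison, control cells labelled shCon were kept with LIF on gelatin (EB day 0, 2 libraries) or grown as EBs without LIF to day 6 (EB day 6, 2 libraries). All 12 libraries thus came from cells labelled with an shRNA, infected cells were selected with puromycin, and the cells of the EB comparison were all control cells. The study's methods state that experiments had biological repeats, without saying for these libraries which came from separate cultures, so p-values measure the spread between libraries.

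Id proteins (inhibitors of DNA binding) have the helix-loop-helix that pairs basic helix-loop-helix (bHLH) transcription factors but lack the basic region that contacts DNA. They bind the E proteins Tcf3, Tcf4 and Tcf12, the common partners of tissue-specific class II bHLH factors, and so keep proneural, myogenic and other differentiation factors off their E-box sites. Id genes are direct targets of BMP-Smad signalling, and in mESCs BMP4 acts through them, together with LIF, to hold back neural differentiation.

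The libraries held between 59224537 and 81524773 counts, at which 3 counts, taken as the smallest measurable amount, corresponded to between 0.0368 and 0.0507 CPM, the counts scaled to a common library total. Such floors cover counting error only. Yeats4 was measured at 55.1 ± 5.45 CPM (SD, n = 3) in shNT, 4.31 ± 0.819 CPM (n = 3) with shGas41-1 and 8.38 ± 0.603 CPM (n = 2) with shGas41-2. The 10 ESC markers summed to between 5950 and 7319 CPM in the 10 libraries of undifferentiated or KD cells and to 1776 and 1427 CPM at EB day 6. Pou5f1, Sox2 and Nanog did not pass with either shRNA. With shGas41-1, 4 of the 10 passed as lower. These were Tfcp2l1 (798 CPM on average in shNT, 268 CPM with shGas41-1, FDR = 0.0092), Esrrb (826 and 397 CPM, FDR = 0.020), Klf4 and Tbx3. With shGas41-2, Klf4 alone passed as lower. The 8 germ layer markers listed (T, Eomes and others; Sox1 was not listed) summed to between 13.6 and 15.6 CPM in shNT, 14.2 and 14.6 CPM with shGas41-2, 11.0 and 13.4 CPM at EB day 0 and 1499 and 2015 CPM at EB day 6. With shGas41-1 they summed to between 18.5 and 23.1 CPM, above shNT without overlap. Of the 8, Pax6 (2.16 CPM on average in shNT, 11.4 CPM with shGas41-1, FDR = 0.0045) and Fgf5 (0.114 and 0.471 CPM, FDR = 0.039) passed as higher with shGas41-1. Eomes passed as lower (8.82 and 4.34 CPM, FDR = 0.034), and none passed with shGas41-2. Over all genes tested with shGas41-1, 10.8% passed as higher and 7.73% as lower. Fibroblast markers summed to between 4.45 and 13.6 CPM in all 12 libraries. The 8 extraembryonic endoderm and trophoblast markers summed to between 32.0 and 41.0 CPM in shNT and 21.9 and 31.7 CPM with shGas41-1. They summed to 29.7 and 35.5 CPM with shGas41-2, 34.6 and 39.5 CPM at EB day 0 and 675 and 907 CPM at EB day 6. With shGas41-1, 3 of 7 tested passed as higher (Gata6, Dab2 and Cdx2) and 2 as lower (Krt8 and Eomes). With shGas41-2, 1 of 8 passed as higher (Sox7), against 5.94% of all genes. In bulk RNA, fewer cells that express a gene and less RNA per cell cannot be told apart.

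The Id genes are short and lie on different chromosomes. In mm9, the build to which the authors mapped, Id1 lies at chr2:152561987-152563146 on the plus strand, Id2 at chr12:25778666-25780957 on the minus strand, Id3 at chr4:135699412-135701670 on the plus strand and Id4 at chr13:48356796-48359405 on the plus strand. No stretch of 50 bases in their transcripts was shared between members or with a protein-coding transcript of another gene. Pseudogenes, noncoding transcripts and inexact matches were not searched, so unique assignment of their reads was not shown. A further limit concerns strand. Of the 1660 exon bases of Id4, 171 (10.3%) lie in an exon of A330033J07Rik on the opposite strand, and the sources used here do not say whether counting used strand. A330033J07Rik had between 4 and 28 counts per library, against between 95 and 259 for Id4.

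The sequences at the start sites are shown side by side as a description of the genes. RefSeq sequence of the GRCm38.p6 build, from 250 bases before to 50 after the start, was matched for Id2, Id3 and Id4, in capitals where it holds CCAAT (or ATTGG, its reverse complement) or the palindrome GGCGCC, a core found in the BMP-responsive elements that Smads bind.
Id2 (chr12:25096043-25096342, minus strand): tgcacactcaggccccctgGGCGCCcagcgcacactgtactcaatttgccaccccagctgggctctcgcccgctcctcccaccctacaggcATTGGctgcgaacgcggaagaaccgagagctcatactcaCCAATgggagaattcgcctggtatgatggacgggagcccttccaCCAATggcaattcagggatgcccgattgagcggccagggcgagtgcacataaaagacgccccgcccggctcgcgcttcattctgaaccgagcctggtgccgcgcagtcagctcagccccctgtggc
Id3 (chr4:136143572-136143871, plus strand): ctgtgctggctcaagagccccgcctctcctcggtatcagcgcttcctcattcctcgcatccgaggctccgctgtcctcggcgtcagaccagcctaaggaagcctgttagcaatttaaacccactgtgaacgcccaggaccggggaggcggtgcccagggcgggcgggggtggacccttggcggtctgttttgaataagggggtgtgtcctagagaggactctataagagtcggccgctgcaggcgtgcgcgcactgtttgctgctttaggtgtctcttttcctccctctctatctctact
Id4 (chr13:48260866-48261165, plus strand): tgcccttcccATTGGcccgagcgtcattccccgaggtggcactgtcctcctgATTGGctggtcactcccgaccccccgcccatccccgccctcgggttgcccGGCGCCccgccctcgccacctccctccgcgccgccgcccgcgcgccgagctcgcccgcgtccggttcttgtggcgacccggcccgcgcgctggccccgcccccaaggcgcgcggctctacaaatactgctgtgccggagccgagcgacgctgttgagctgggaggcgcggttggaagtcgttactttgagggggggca
Id2 held GGCGCC starting 231 bases before the start site and CCAAT in 3 places, starting 159, 120 and 76 bases before it. Id4 held GGCGCC starting 148 bases before the start and CCAAT in 2 places, starting 240 and 198 bases before it, whereas the Id3 window had a match to neither. Among all 32851 promoter windows of this length, 11.9% held GGCGCC and 37.4% held CCAAT on either strand. The Id3 window instead held TATAA starting 29 bases before the start, which 24.9% of all windows held. The E-box letters CANNTG were found once in Id2, in neither Id3 nor Id4, and in 72.3% of all windows. The letters TGACG, the core of the cAMP response element, were found once each in Id3 and Id4, not in Id2, and in 20.8% of all windows. All motifs were searched on both strands. GC content was 63.3% in Id2, 60% in Id3 and 73.3% in Id4, against a median of 52.7% over all windows, and CpG counts were 21, 19 and 39 against a median of 7. These matches describe the letters in 1 window per gene and do not show a site in use.

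All 4 Id genes were measured higher in every KD library than in every shNT library. The share of all genes separated in this way was not computed, so this count is not read as particular to the Id genes. The difference was largest for Id2, at 9.61-fold with shGas41-1 and 3.97-fold with shGas41-2. Id2, best known for its part in lymphoid development and for binding Rb, was measured at 5.38, 6.95 and 4.27 CPM in the 3 shNT libraries. It reached 53.6, 46.6 and 57.3 CPM with shGas41-1 and 19.9 and 23.8 CPM with shGas41-2. The lowest KD library thus stood well above the highest shNT library, and the shGas41-1 libraries stood above those of shGas41-2. Tested by edgeR's quasi-likelihood method over 18274 genes, the log2 fold change was 3.26 with shGas41-1 (standard error 0.21, FDR = 7.1e-04). With shGas41-2 it was 1.99 (standard error 0.20, FDR = 0.0018 over 18405 genes). With shGas41-1 it ranked 3 by p among all genes tested, and 122 by signed log2 fold change.

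Id3, which acts alongside Id1 in neural and endothelial precursors, was measured at 30.8, 25.8 and 24.8 CPM in shNT. It was at 65.9, 47.4 and 70.9 CPM with shGas41-1 and at 47.6 and 44.8 CPM with shGas41-2. The lowest of the KD libraries was 1 with shGas41-2, still above all shNT libraries. The log2 fold change was 1.20 (standard error 0.18, FDR = 0.0042) with shGas41-1 and 0.78 (standard error 0.12, FDR = 0.010) with shGas41-2, so Id3 was upregulated with both shRNAs. The shGas41-2 call was lost without shNT replicate 2 or either shGas41-2 library (FDR = 0.055, 0.098 and 0.077).

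Id1, the member most studied downstream of BMP4 in mESCs, was measured at 47.1, 65.7 and 44.9 CPM in shNT. It was at 102, 97.5 and 102 CPM with shGas41-1 and at 69.0 and 93.01 CPM with shGas41-2. The shGas41-1 libraries lay close together, but the lower shGas41-2 library lay just above the highest shNT library. The log2 fold change of 0.96 with shGas41-1 (standard error 0.17, FDR = 0.0070) passed the FDR threshold of 0.05, and that of 0.63 with shGas41-2 (standard error 0.19, FDR = 0.076) did not. The latter passed without shNT replicate 1 (FDR = 0.038) and in DESeq2 (adjusted p = 0.015), but was 0.40 without shGas41-2 replicate 2 (FDR = 0.42).

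Id4, a regulator of neural precursors, was the least expressed member, at 1.55, 1.39 and 1.90 CPM in shNT. It was at 2.79, 3.28 and 2.43 CPM with shGas41-1 and at 2.18 and 2.50 CPM with shGas41-2. Every library lay well above the floor, and the KD libraries lay above those of shNT by a narrow margin. The log2 fold change was 0.83 with shGas41-1 (standard error 0.21, FDR = 0.028) and 0.54 with shGas41-2 (standard error 0.22, FDR = 0.15). The shGas41-1 call was lost without shNT replicate 1 or 2 or shGas41-1 replicate 1 or 2 (FDR = 0.062, 0.12, 0.081 and 0.066). A330033J07Rik, the gene overlapping Id4 on the other strand, had 9, 10 and 9 counts in shNT, 22, 28 and 16 with shGas41-1, and 11 and 13 with shGas41-2. Its part in the Id4 counts was not tested.

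In number, 4 of 4 Id genes passed an FDR of 0.05 as higher with shGas41-1, where 10.8% of all genes tested did so and 7.73% passed as lower. With a change of at least 2-fold also required, 2 of 4 passed (Id2 and Id3), against 7.9% of all genes. With shGas41-2, 2 of 4 passed as higher (Id2 and Id3), against 5.94% higher and 3.97% lower over all genes. With the 2-fold change also required 1 of 4 passed (Id2), against 3.96%. None passed as lower with either shRNA. Since the family was picked with these results known, nothing is read from these shares. The calls over all genes moved with single libraries. With shGas41-1 there were 1971 higher and 1412 lower, but 962 and 479 without shNT replicate 2, 1065 and 555 without shNT replicate 3, and 1086 and 517 without shGas41-1 replicate 1. With shGas41-2 there were 1094 higher and 730 lower, but 2198 and 1933 without shNT replicate 1, 456 and 132 without shNT replicate 2, 327 and 53 without shGas41-2 replicate 1, and 283 and 23 without shGas41-2 replicate 2.

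The endothelial gene Cdh5 was higher with both shRNAs, at 0.122 CPM on average in shNT, 1.14 CPM with shGas41-1 (FDR = 0.0031) and 0.816 CPM with shGas41-2 (FDR = 0.011). The 6 blood and endothelial markers summed to between 46.0 and 60.7 CPM in shNT, 53.7 and 74.0 CPM with shGas41-1 and 63.5 and 68.6 CPM with shGas41-2, which did not overlap shNT, and were mostly Pecam1. Of the 5 tested, 1 was higher with shGas41-1 (10.8% of all genes), and 1 was higher and 1 lower with shGas41-2 (5.94% and 3.97%). The lower one was Tek, at 4.25 CPM on average in shNT, 2.50 CPM with shGas41-1 (FDR = 0.085) and 2.27 CPM with shGas41-2 (FDR = 0.036). Hbb-bh1 was at 0 in all 3 groups. The part of these markers in the Id values was not tested, nor was that of the germ layer or extraembryonic markers that differed in the KD libraries.

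**Figure D1:**
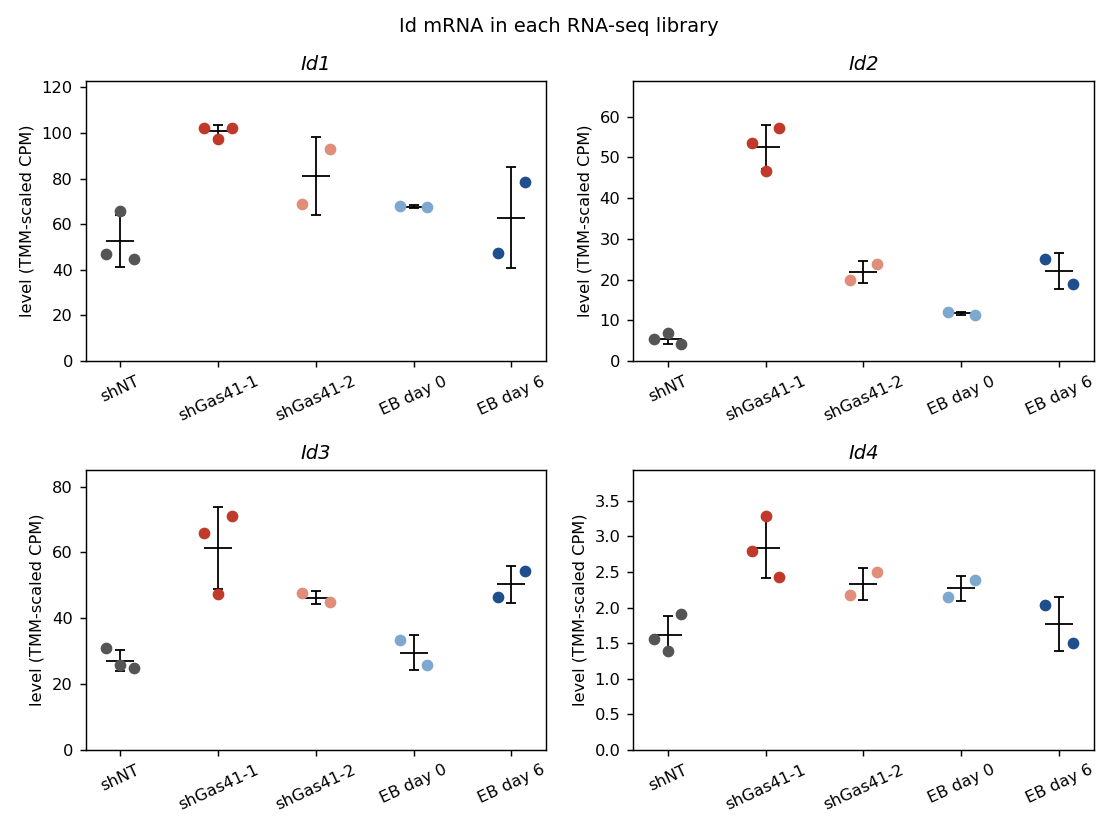
Level of each Id gene (CPM scaled by TMM, y axes from 0) in each library, with the mean and SD of each group as a bar with whiskers. For Id2 the 3 shGas41-1 libraries sit between 46.6 and 57.3 CPM and the 2 shGas41-2 libraries at 19.9 and 23.8 CPM, above all 3 shNT libraries at 4.27 to 6.95 CPM.

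The shRNAs differed most for Id2. Its level was 2.43-fold higher with shGas41-1 than with shGas41-2 (log2 difference 1.28, standard error 0.21), which ranked 17 by p but had an FDR of 0.14 over 19146 genes in edgeR. The shNT libraries were part of this fit and of its estimate of spread. For Id1, Id3 and Id4 the log2 differences were 0.33, 0.43 and 0.30 with standard errors between 0.18 and 0.21. None of the 4 genes passed. By this test 0% of all genes passed as higher and 0% as lower, while 1348 of the 19146 had an unadjusted p below 0.05 and DESeq2 called 72 higher and 99 lower. The Id2 difference passed in DESeq2 (adjusted p = 8.8e-06) and when all 12 libraries shared 1 edgeR fit (FDR = 0.048). The residual Yeats4 level moved the other way, being lower with shGas41-1 (3.46 to 5.10 CPM) than with shGas41-2 (7.95 to 8.80 CPM), and its part in the difference was not tested.

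The 2 sets of undifferentiated control cells differed in Id2 as well. EB day 0 libraries had 12.0 and 11.4 CPM of Id2, against 4.27 to 6.95 CPM in shNT, a log2 difference of 1.09 (standard error 0.20, FDR = 0.042), where 1.7% of 18095 genes passed as higher and 0.647% as lower. This call was lost without shNT replicate 2 or either EB day 0 library (FDR = 0.14, 0.26 and 0.19). The sets did not overlap for Id1 (68.1 and 67.3 CPM at EB day 0) or Id4 (2.14 and 2.39 CPM), although neither passed (FDR = 0.20 and 0.19). For Id3 they overlapped, with 33.4 and 25.7 CPM at EB day 0 and a log2 difference of 0.14 (standard error 0.15). Culture set and any batch cannot be told apart here. Set against the EB day 0 libraries instead of shNT, in a comparison added after these values were seen, the log2 fold change of Id2 was 2.18 with shGas41-1 and 0.91 with shGas41-2, and both still passed (FDR = 5.1e-04 and 4.1e-04). Against these controls Id3 still passed with both (1.08 and 0.65), and Id1 was at 0.59 with shGas41-1 (FDR = 0.025) and 0.27 with shGas41-2 (FDR = 0.12). Id4 was at 0.34 with shGas41-1 (FDR = 0.30) and 0.05 with shGas41-2 (FDR = 0.87).

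At EB day 6, Id2 and Id3 were higher than at day 0 and Id1 and Id4 did not pass the test. Id2 was measured at 25.2 and 18.9 CPM at EB day 6, above the 12.0 and 11.4 CPM of day 0 (log2 fold change 0.89, standard error 0.16, FDR = 0.0037). Id3 was at 46.4 and 54.2 CPM, above 33.4 and 25.7 CPM (log2 fold change 0.74, standard error 0.15, FDR = 0.0050). Over all 18287 genes tested, 30.5% passed as higher and 28.4% as lower, so 2 of 4 members higher and 0 of 4 lower stood against a broad background of change. Both calls were lost without EB day 0 replicate 3 (FDR = 0.094 and 0.074).

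Id1 set the EB day 6 libraries apart from each other, with 47.1 CPM in one and 78.5 CPM in the other, on either side of day 0 (log2 fold change −0.13, standard error 0.21, FDR = 0.62). Without EB day 6 replicate 2 the log2 fold change was 0.19 (FDR = 0.14), and without replicate 3 it was −0.53 (FDR = 2.4e-04), so each library gave its own direction. The same libraries differed in blood and endothelial markers, whose 6 genes summed to 10.8 and 60.4 CPM, chiefly through the VEGF receptor Kdr at 7.28 and 58.1 CPM. Pecam1, which ESCs also express, was at 2.39 and 1.49 CPM, and Cdh5 at 0.121 and 0.122 CPM. The libraries were not set apart by these markers alone. They also differed in Mesp1 (22.3 and 88.3 CPM), Msgn1 (18 and 358 counts) and Bmp2 (1.71 and 5.93 CPM), and the other way in Gdf6 (3.68 and 1.42 CPM). The part of these differences in the Id1 values was not tested. Id4 was at 2.04 and 1.51 CPM, below both day 0 libraries by a margin that did not pass (log2 fold change −0.37, standard error 0.26, FDR = 0.25).

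Over the 5 groups, Id2 was thus lowest in shNT, next at EB day 0, then with shGas41-2 and at EB day 6, which overlapped, and highest with shGas41-1. For Id1 the shGas41-1 libraries lay above all others, and EB day 6 overlapped with the 3 remaining groups. For Id3, shNT overlapped with EB day 0, and EB day 6 overlapped with both KDs. For Id4, shNT overlapped with EB day 6, and shGas41-2 overlapped with both EB day 0 and shGas41-1.

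**Figure D2:**
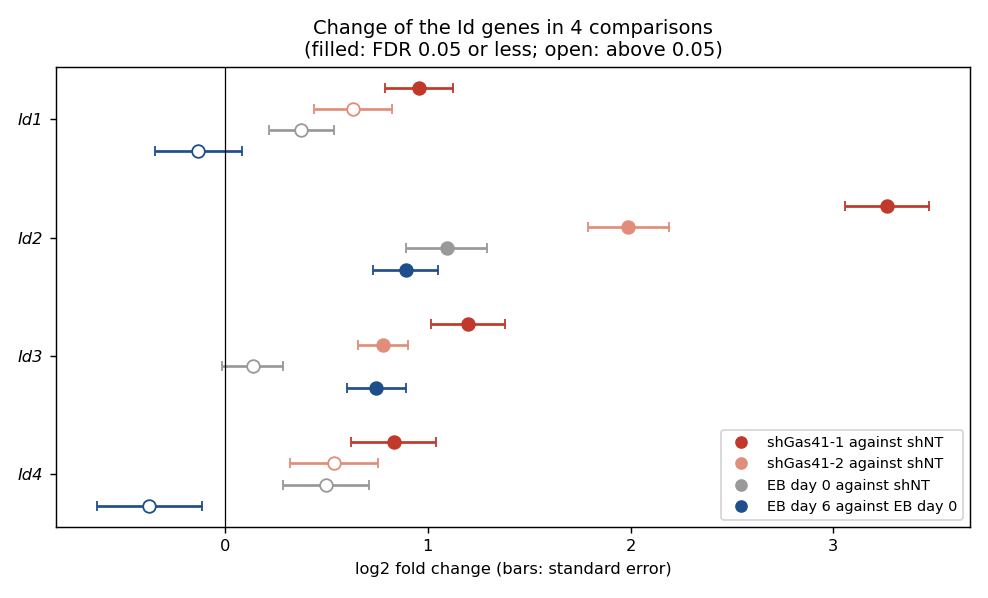
Log2 fold change of each Id gene in 4 comparisons, with its standard error; filled points have an FDR of 0.05 or less. Id2 is filled in all 4, from 0.89 at EB day 6 to 3.26 with shGas41-1, and the point of Id4 lies above 0 in both KDs and below 0 at EB day 6.

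The change with a KD and the change at EB day 6 use different control libraries, so their difference was tested in 1 fit of all 12 libraries. That difference also includes the gap between the control sets. Between EB day 0 and shNT this gap was 1.09 for Id2 and 0.50 for Id4 on the log2 scale. Id2 itself averaged 21.9 CPM with shGas41-2 and 22.0 CPM at EB day 6. For Id2 the change with shGas41-1 exceeded that at EB day 6 by 2.33 on the log2 scale (standard error 0.28, FDR = 4.2e-05). The excess was 1.16 for Id4 (standard error 0.31, FDR = 0.0097) and 1.05 for Id1 (standard error 0.30, FDR = 0.015), whereas for Id3 it was 0.41 (standard error 0.25, FDR = 0.21). Over 19684 genes, 22.6% had a larger change with shGas41-1 by this test and 22.4% a smaller one. With shGas41-2 the excess passed for Id2 (1.07, standard error 0.29, FDR = 0.010) and narrowly for Id4 (0.88, standard error 0.33, FDR = 0.048), but not for Id1 (0.73, FDR = 0.085) or Id3 (0.0024, standard error 0.27), against 21% and 20.4% of all genes. For Id3 the standard error leaves room for a difference in either direction. With shGas41-1 the excess lost its call for Id1 without EB day 6 replicate 2 (FDR = 0.070) and for Id4 without EB day 6 replicate 3 (FDR = 0.051), and that of Id3 gained one without shGas41-1 replicate 2 (FDR = 0.046). With shGas41-2 it lost its call for Id2 without EB day 6 replicate 3 (FDR = 0.057) and for Id4 in 10 of 16 alternatives, among them leaving out either library of shGas41-2 or of EB day 0. The Id1 excess with shGas41-2 passed without shNT replicate 2 (FDR = 0.032) or EB day 6 replicate 3 (FDR = 0.014).

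Per kilobase of exon, which allows levels to be compared between genes, the order in shNT was Id1 (45.3 ± 9.87 CPM per kb, SD, n = 3), Id3 (15.1 ± 1.81), Id2 (4.36 ± 1.06) and Id4 (0.974 ± 0.157), with no overlap between neighbours. With shGas41-1 the summed Id level per kb was 164 ± 13.2, against 65.8 ± 10.5 in shNT and 114 ± 15.8 (n = 2) with shGas41-2. Id1 remained the leading member with shGas41-1, at 86.8 ± 2.35 CPM per kb. Id2 (41.3 ± 4.28) and Id3 (34.3 ± 6.93) overlapped there, and with the longest Id3 transcript instead of all its exons Id3 came out higher, at 48.1.

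The make-up of the family shifted toward Id2. Id2 made up between 5.89% and 7.07% of the summed level per kb in shNT, between 24.6% and 25.9% with shGas41-1, and 14.9% and 15.2% with shGas41-2. The share was 10.7% and 10.8% at EB day 0 and 22.6% and 13.1% at EB day 6. The Id2 share in shNT did not overlap with that in any other group. The share of Id1 fell in turn from between 64.5% and 73.3% in shNT to between 50.6% and 56.4% with shGas41-1, although its level was higher. Within a library, the log2 ratio of Id2 to Id1 rose from −3.39 ± 0.134 in shNT to −1.08 ± 0.116 with shGas41-1, while that of Id3 to Id1 overlapped between them (−1.57 ± 0.377 and −1.36 ± 0.271).

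**Figure D3:**
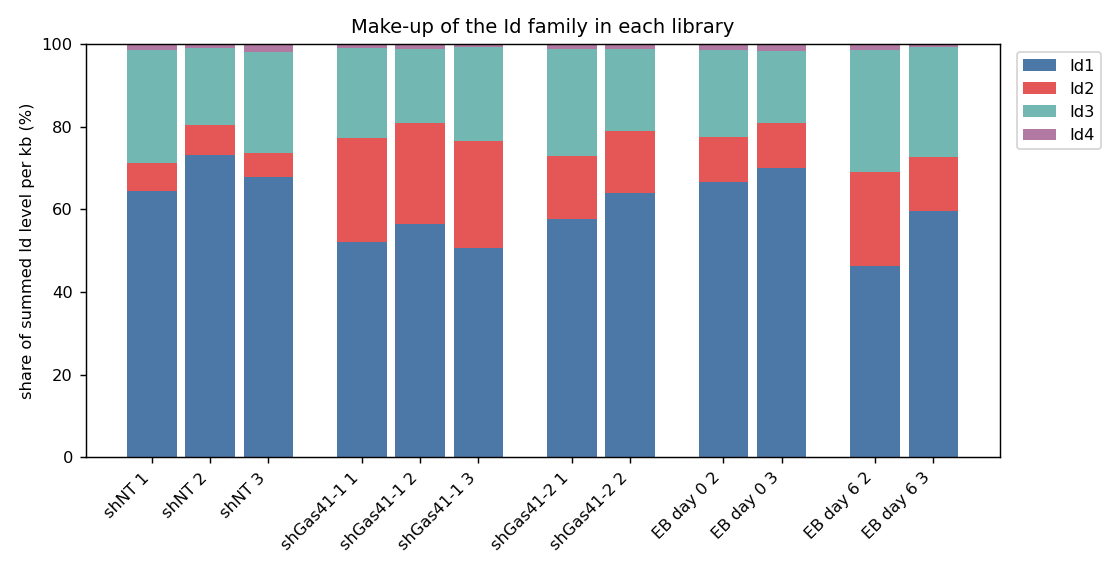
Share of each Id gene in the summed Id level per kb of exon, as stacked bars for each of the 12 libraries. The Id2 segment is between 5.89% and 7.07% in shNT and between 24.6% and 25.9% with shGas41-1, and Id4 stays at or below 2.01% in every library.

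The genes with the profile most like each member were found over the 12 libraries among 15099 genes, by the root mean square difference of log2(CPM + 1) after centring each gene on its mean. For Id2 they were Coch (0.35), which encodes the matrix protein cochlin, Ccno (0.36), a cyclin of multiciliated cells, and Pdpn (0.54), against a median of 1.18 over all genes. Coch averaged 3.21 CPM in shNT, 30.3 with shGas41-1, 13.9 with shGas41-2, 5.72 at EB day 0 and 7.93 at EB day 6, whereas Id2 averaged nearly the same with shGas41-2 (21.9 CPM) as at EB day 6 (22.0 CPM). For Id1 they were Kitl (0.21), the ligand of the receptor Kit, Sdr42e1 (0.22) and Flrt2 (0.23), and for Id3 Abat (0.17), which breaks down the neurotransmitter GABA, Neto2 (0.18) and Zfp113 (0.19). For Id4 they were Scg3, Comp and Pfkfb2 (0.11 to 0.12). No Id gene was among the 3 most like another member. By this difference alone the nearest members were Id1 and Id4 (0.32) and Id1 and Id3 (0.37). Id2 differed from the others by 0.71 (Id3) to 0.97 (Id4). Such values grow with the size of a gene's own changes, whose root mean square was 1.13 for Id2 and 0.24 for Id4. By rank among the 15099 genes, Id3 was number 27 for Id2, but Id2 was number 10870 for Id3. Id4 was number 460 for Id1, and Id1 was number 5123 for Id4. With a pseudocount of 0.1 only Coch, Ccno and Abat stayed in these sets.

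The partners of the Id proteins were measured in the same libraries, in lists that were also drawn up with earlier results known. The 3 E proteins had negative log2 fold changes with both shRNAs, but the only one to pass was Tcf4 with shGas41-1, where 7.73% of all genes passed as lower. Tcf4 was at 32.6 ± 4.23 CPM in shNT and 21.4 ± 3.43 CPM with shGas41-1 (FDR = 0.035 for a log2 fold change of −0.59, standard error 0.16). Tcf3 and Tcf12 had log2 fold changes of −0.40 (FDR = 0.21) and −0.45 (FDR = 0.12) with shGas41-1. In EBs 2 of 3 E proteins rose, against 30.5% of all genes. Tcf12 rose to 118 CPM from 38.8 CPM (log2 fold change 1.58, FDR = 3.0e-05) and Tcf3 to 107 from 70.1 CPM (0.59, FDR = 0.0011), whereas Tcf4 did not pass (0.22, FDR = 0.052). The change with each shRNA was lower than that at EB day 6 for 3 of 3 E proteins, past an FDR of 0.05, as it was for 22.4% of all genes with shGas41-1 and 20.4% with shGas41-2.

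Of the class II bHLH factors whose action Id proteins restrain, 35 were listed and 19 could be tested with shGas41-1, of which 6 were higher and 1 lower (median log2 fold change 0.99, against 0.02 over all genes), where 10.8% of all genes were higher and 7.73% lower. With shGas41-2, 1 of 19 was higher and 1 lower (5.94% and 3.97% of all genes). The gene higher with both shRNAs was Neurog1, a proneural factor, with 2, 0 and 2 counts in shNT, 36, 88 and 27 counts with shGas41-1 and 16 and 26 counts with shGas41-2 (FDR = 0.0035 and 0.025). These are low levels, no more than 1.11 CPM, and Neurog1 entered these tests only through its KD counts. The mesodermal factor Tcf15 was lower with both (log2 fold change −0.53 and −0.45, FDR = 0.036 and 0.039). At EB day 0 Tcf15 was at 36.4 and 44.7 CPM, which overlapped with the KD libraries (32.2 to 43.6 CPM). Neurog1 had 1 and 5 counts there, below the KD libraries. At EB day 6, 9 of 18 were higher and 5 lower (30.5% and 28.4% of all genes), led by the mesodermal factors Msgn1 (0 counts in both day 0 libraries, 18 and 358 at day 6), Mesp1 (0.103 to 55.3 CPM on average) and Twist2 (0.0151 to 1.08 CPM). Msgn1 and Twist2, at or near 0 counts at day 0, entered the test only through their day 6 counts, so the count of genes higher leans upward.

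Upstream of the Id genes stands Bmp4, the ligand studied most in mESCs, which was lower with shGas41-1 and did not pass with shGas41-2. It was at 49.2 CPM on average in shNT, 28.9 CPM with shGas41-1 (FDR = 0.012 for a log2 fold change of −0.75, standard error 0.15) and 46.0 CPM with shGas41-2 (−0.09, FDR = 0.67). Of 5 ligands tested, 1 was higher (Bmp8a) and 1 lower with shGas41-1 and none passed with shGas41-2. In EBs at day 6, Bmp4 fell to 3.17 from 37.4 CPM, while 4 of 8 ligands were higher, among them Bmp2 (3.82 from 0.158 CPM), Gdf6 (2.55 from 0.0134 CPM) and Bmp5 (17 and 20 counts, from 0 and 0). Gdf6 and Bmp5, at or near 0 counts at day 0, entered the test only through their day 6 counts. The count of 4 of 8 therefore leans toward ligands that rose.

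The counts in the BMP ligand, antagonist, receptor and Smad lists stand beside the same shares over all genes. These were 10.8% higher and 7.73% lower with shGas41-1, 5.94% and 3.97% with shGas41-2, and 30.5% and 28.4% at EB day 6. Of 10 BMP antagonists tested, 3 were higher with shGas41-1 (Chrdl1, Fstl1 and Bmper) and none passed with shGas41-2. In EBs, 6 of 12 were higher, led by Cer1 (10.7 from 0.0352 CPM), Bmper (10.7 from 0.0419 CPM) and follistatin, Fst (396 from 6.32 CPM). The 2 libraries of EB day 6 differed widely in Cer1 (SD 9.65 CPM) and Bmper (SD 9.48 CPM), and less so in Fst for its level (SD 23.2 CPM). Cer1 and Bmper entered the test only through their day 6 counts. Of 8 BMP receptors, 1 was lower with shGas41-1 (Acvrl1), none passed with shGas41-2, and 6 were higher and 2 lower at EB day 6, where Acvr1 rose by 1.83 and Bmpr1b by 1.75 on the log2 scale and the co-receptor Eng fell to 7.10 from 24.4 CPM.

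Among 13 Smads and Smad inhibitors, Smad6, a BMP-induced inhibitor of BMP receptor signalling, was higher with both shRNAs. It was at 3.39 CPM on average in shNT, 6.64 CPM with shGas41-1 (FDR = 0.0095 for a log2 fold change of 0.99, standard error 0.19) and 5.97 CPM with shGas41-2 (0.83, standard error 0.15, FDR = 0.018). The undifferentiated EB day 0 libraries, at 6.82 and 4.18 CPM, overlapped with the KD libraries (5.36 to 7.73 CPM), so the Smad6 difference holds against shNT only. Smad7 and Smurf1 were lower with shGas41-1. Of these, 10 were higher and 1 lower at EB day 6, led by Zeb2 (4.68), Smad1 (2.13) and Smad9 (1.82 on the log2 scale).

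Of the other BMP target genes, 6 of 14 were higher and 3 lower with shGas41-1 and 2 of 13 were higher with shGas41-2 (median log2 fold changes 0.88 and 0.48), against 10.8%, 7.73% and 5.94% of all genes. Those higher with both were Smad6 and Gata3, a trophoblast and lineage regulator, which was at 0.120 CPM on average in shNT, 2.32 with shGas41-1 and 1.13 with shGas41-2 (log2 fold change 4.30 and 3.26, FDR = 0.0021 and 0.0028). Gata3 was at 0.402 and 0.242 CPM at EB day 0, below all KD libraries. Those lower with shGas41-1 were Hes1, Tbx3 and Smad7. By EB day 6, 9 of 13 were higher (30.5% of all genes), led by Cdx2 (6.71) and Msx1 (6.58 on the log2 scale). Another 2 were lower (28.4% of all genes), among them Tbx3 (−3.09 on the log2 scale), which is also an ESC marker.

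Of 16 non-bHLH partners and regulators of Id proteins, such as Rb and Ets proteins and the deubiquitinase Usp1, 1 was higher and 2 were lower with shGas41-1 and 1 was higher and 1 lower with shGas41-2. Over all genes, 10.8% were higher and 7.73% lower with shGas41-1, and 5.94% and 3.97% with shGas41-2. Klf4, a pluripotency factor, was lower with both (257 CPM on average in shNT, 116 and 162 CPM in the KDs, log2 fold change −1.13 and −0.65, FDR = 0.0055 and 0.041). At EB day 0 it was at 259 and 266 CPM, above all KD libraries. Differentiated EBs had 3 of the 16 higher and 5 lower (30.5% and 28.4% of all genes), led by Pax8 (−5.75), Klf4 (−5.64) and Ets1 (4.08 on the log2 scale). The KD changes of Klf4 and Tbx3 came with a median log2 fold change of −0.21 and −0.19 over the 10 ESC markers. Of these markers, 4 passed as lower with shGas41-1 and 1 with shGas41-2, against 7.73% and 3.97% of all genes.

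**Figure D4:**
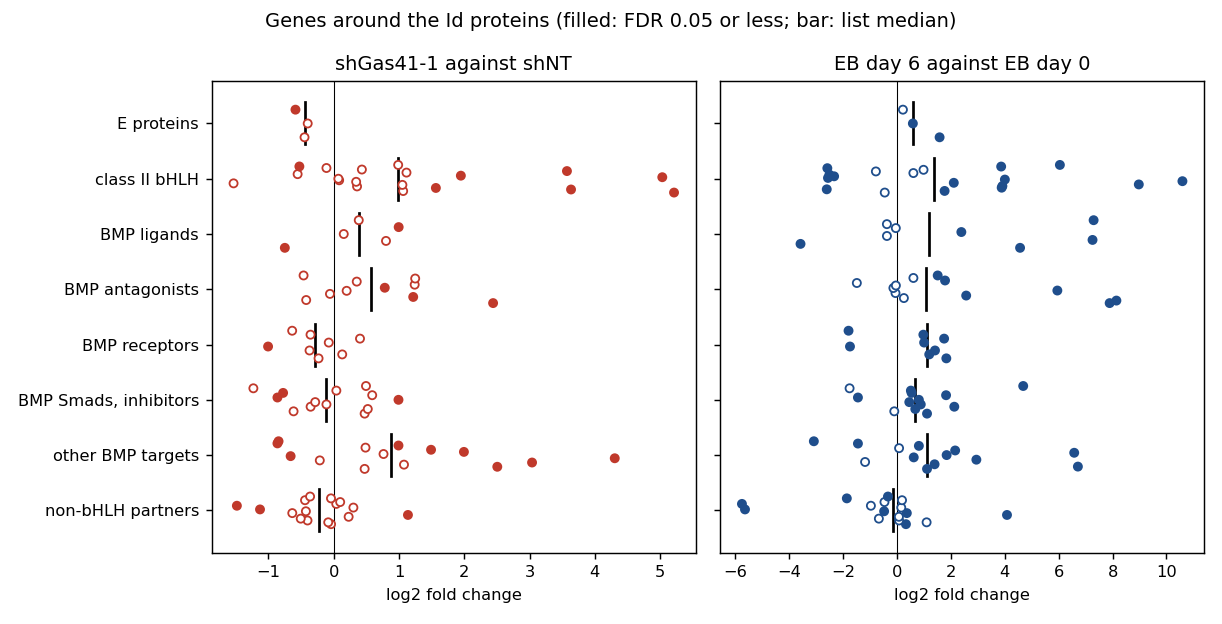
Log2 fold change of each tested gene in the 8 lists of Id partners and BMP pathway genes, with shGas41-1 (left) and at EB day 6 (right, on a wider axis); filled points have an FDR of 0.05 or less and bars mark list medians. The E proteins lie left of 0 with shGas41-1 and right of 0 at EB day 6, and 6 of 8 BMP receptors are filled and higher at EB day 6.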

How the data were processed

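RNA-seq from 12 libraries of J1 mESCs was analysed (shNT 3, shGas41-1 3, shGas41-2 2, EB day 0 2, EB day 6 2), grouped by their labels. Columns called ESC in the EB table were read as EB day 0, since only EB day 0 and EB day 6 libraries name that table in their labels. The 15 ChIP-seq samples of the 27 were not analysed here. Per the submitters' processing notes, the authors used TopHat2 2.0.10, Bowtie2 2.1.0 and HTSeq on mm9, and the deposited counts are whole reads per gene without normalization. The deposited log2 fold changes, p-values and FDR come from the authors' own edgeR comparisons and were not used. The members and the lists of partner, BMP and marker genes were chosen with earlier results of these data known.

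The 3 tables were joined by Ensembl identifier, and the shNT counts were identical in both KD tables. Tests were run with edgeR 4.0.16 (R 4.3.3). Its filterByExpr step, with a minimum count of 10 and a minimum total of 15, chose the genes tested, and TMM set the library sizes. A gene near 0 counts in 1 group was tested only where the other group had enough counts, so such a gene could enter only by differing. The quasi-likelihood test compared 2 groups in a fit of only their libraries, with Benjamini-Hochberg adjustment (FDR) over every gene tested. The comparison of the 2 shRNAs was the exception, as its fit also held the shNT libraries. Differences between a KD change and the EB change were tested in a fit of all 12 libraries. Passing meant an FDR of 0.05 or less. Standard errors were computed as the log2 fold change over the square root of F. The tests were checked on simulated data. CPM values use the TMM factors of all 12 libraries, and CPM per kb use exon lengths of the mm9 GENCODE annotation. Depth was between 59224537 and 81524773 counts. No label pairs the libraries, and same-numbered libraries of shGas41-1 and shNT deviated from their group means with correlations of −0.157, 0.195 and −0.649 over genes. For shGas41-2 the correlations with the shNT libraries of equal number were 0.524 and 0.463, in 2 pairs, too few to settle a pairing from the data. The fits had no replicate block.

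Genes named were the 4 members, Yeats4, all E proteins, from each list the genes passing with both shRNAs (at most 4) and the 3 largest changes at EB day 6, and the 3 genes most like each member in profile (no Gm or Rik names). Other genes named to resolve a small count, and A330033J07Rik, Kdr, Pecam1, Cdh5, Tek, Hbb-bh1, Pax6, Fgf5, Eomes, Gata6, Dab2, Krt8, Sox7, Esrrb and Tfcp2l1, were chosen after their values were seen. Alternatives were scaling by library totals or DESeq2 size factors, no filter, DESeq2 1.42.0, all 12 libraries in 1 fit, a replicate block, each library left out, another pseudocount (0.1 in place of 1) and another exon length. Other control libraries were added after the data were seen. Promoter sequences came from RefSeq (GRCm38.p6) and were not placed on mm9.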

Additional observations from a re-analysis of the deposited data

Results flagged for a closer look

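The results singled out here are those in which the change of an Id gene with a KD differed from its change at EB day 6 by a test of that difference over all 12 libraries. With shGas41-1 the KD change exceeded the EB change by 1.05 on the log2 scale for Id1, 2.33 for Id2 and 1.16 for Id4. With shGas41-2 it did so by 1.07 for Id2 and 0.883 for Id4. The Id2 excess with shGas41-1 passed in all 16 alternatives, with a highest FDR of 4.9e-04. That of Id1 with shGas41-1 had an FDR of 0.070 without EB day 6 replicate 2, that of Id4 with shGas41-1 0.051 without EB day 6 replicate 3, and that of Id2 with shGas41-2 0.057 without EB day 6 replicate 3. The Id4 excess with shGas41-2 passed in 6 of its 16 alternatives and had an FDR of up to 0.17 in the others. Over all genes 22.6% had a larger change with shGas41-1 than at EB day 6, and 21% with shGas41-2. Each excess also includes the difference between the 2 control sets. From shNT to EB day 0, that log2 difference was 1.09 for Id2, 0.50 for Id4 and 0.38 for Id1. Set against the EB day 0 libraries, the change with shGas41-2 was 0.91 for Id2 and 0.05 for Id4. At EB day 6, measured from the same libraries, these genes changed by 0.89 and −0.37. With shGas41-1 the change from EB day 0 was 2.18 for Id2, 0.59 for Id1 and 0.34 for Id4. No cause of these differences was tested.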

How the results depend on the processing

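All 4 Id genes kept their upward direction, and Id2 its call, under all 14 alternatives with shGas41-1 and all 13 with shGas41-2. Id1 and Id3 also kept their call under all 14 with shGas41-1, and Id4 lost its call under 6 of them. The log2 fold change of Id2 ranged from 2.18 to 3.46 with shGas41-1 (highest FDR 0.017) and from 0.91 to 2.19 with shGas41-2 (highest FDR 0.023), the lowest being against EB day 0 controls. Leaving out 1 library gave 3 to 4 passing Id genes of 4 with shGas41-1. It gave 1 to 3 of 4 with shGas41-2, 0 to 3 at EB day 6, 0 to 1 for EB day 0 against shNT, 2 to 4 for the shGas41-1 change minus the EB change, and 1 to 2 for the shGas41-2 change minus the EB change; an arm left with 1 library is assumed to vary like the other groups. With the replicate block (same-numbered libraries as pairs, which no label states), 4 Id genes passed with shGas41-2 in place of 2 (over all genes 3536 higher and 3630 lower in place of 1094 and 730), 3 with shGas41-1 in place of 4 (1107 higher and 442 lower in place of 1971 and 1412), and 1 for the shGas41-2 change minus the EB change in place of 2. That last count was also 1 with no filter on low counts. For shGas41-1 against shGas41-2, 1 Id gene (Id2) passed in DESeq2 and 1 in the fit of all 12 libraries, in place of 0. The cause of these shifts was not tested.

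The direction turned in 3 results, none of which had passed. With 1 library left out the Id1 change at EB day 6 ranged from −0.53 to 0.19, being 0.19 without EB day 6 replicate 2. The Id3 difference between EB day 0 and shNT ranged likewise from −0.077 (without EB day 0 replicate 2) to 0.29. The Id3 value for the shGas41-2 change minus the EB change was −0.0054 in DESeq2 and ranged from −0.20 to 0.18 with 1 library left out, being −0.03 without shNT replicate 2, −0.06 without shNT replicate 3, −0.04 without shGas41-2 replicate 1, −0.20 without EB day 0 replicate 2 and −0.11 without EB day 6 replicate 2. Scaling by library totals moved the split of all genes passing with shGas41-2 from 1094 higher and 730 lower to 961 higher and 1289 lower. At EB day 6, 5584 higher and 5195 lower became 2778 and 2288 without EB day 0 replicate 3, and 3817 and 3273 without EB day 0 replicate 2. Of 240 list counts recomputed under scaling, filter or DESeq2, 203 stayed within 1.5 times and 37 did not. Id4, with 95 to 259 counts a library, and the groups of 2 libraries set the limits of precision.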
